A study of Mus musculus with 15 samples.

Results

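The subject here is a set of 2585 cytosine positions that took an extreme share of the sequencing in reduced representation bisulfite sequencing (RRBS) of mouse kidney. RRBS reads the methylation state of CpG sites near restriction cuts, and each read over a site gives 1 call, methylated or unmethylated. In each of 9 samples, the positions with at least 10 calls were ranked by calls, and the level exceeded by 1 position in 1000 was taken as the threshold. A position was kept when it lay on an autosome, reached 10 calls in every one of the 9 samples and exceeded the threshold in at least 1 sample. The 2585 positions kept were 0.733% of the 352515 autosomal positions of that coverage. The other 349930 autosomal positions served for comparison.

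All animals were of strain C57BL/6. The 3 control samples were newborn (P0) and carried floxed Dnmt1 alleles without Cre (Dnmt1 f/f). The 3 knockout samples (KO) were P0 and carried Six2Cre with the same floxed alleles (Six2Cre Dnmt1 f/f). The 3 adult samples were wild type at 6 weeks, so they differed from the controls in both age and the floxed alleles, and those differences cannot be told apart. RNA sequencing covered 3 controls and 3 KO samples at P0 and no adult. Six2 marks nephron progenitors, so Six2Cre acts in these cells and their descendants and leaves Dnmt1 intact in the ureteric, stromal, vascular and blood lineages. The labels give Six2+ cells as the source, while the DNA protocol names entire kidneys, so the samples are described as kidney. Nothing in the labels says that the replicates were separate animals, so the p-values measure the spread between these samples, which may be technical.

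Dnmt1 is the maintenance methyltransferase, which copies CpG methylation onto the new strand after replication. In mammals much of the methylated CpG content lies in repeated DNA. Pericentromeric major satellite, present in very many copies, is normally densely methylated, and ribosomal DNA repeats are methylated in part of their copies. Reference genomes hold few of these copies, and reads from many copies can collect at the few that are placed, which is a known feature of the mm10 assembly on chromosome 2 near the deepest cluster and at the ribosomal RNA pseudogene Rn18s-rs5 on chromosome 17. No repeat annotation or genome sequence was used here, so the repeat content of the positions was not analysed beyond the RefSeq gene models.

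The calls chose the positions, so calls and shares of calls are given as a description, with no test. The thresholds ran from 160 to 632 calls, in samples of 18424875 to 88765177 calls. A control exceeded its threshold at 1617 of the positions, a KO sample at 1255 and an adult at 1964. All 9 samples did so at 382 positions, a single sample at 833, and adults alone at 873. Around the threshold, the 100 positions just inside, whose calls were 1.002 to 1.011 times the threshold in the sample where they came highest, had a mean methylation of 40.9% in controls, 30.1% in KO and 42.2% in adults. The 100 just outside, at 0.992 to 1.0 times, had 50.6%, 36.6% and 50.7%.

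Positions at most 1000 bases apart were merged into 1006 clusters, of which 471 held 1 position and 224 held at least 3. A single cluster on chromosome 17 held 487 positions, which is 18.8% of the set. Chromosome 17 therefore held 22.8% of the extreme-depth positions against 4.64% of all autosomal positions compared. The extreme-depth positions lay within annotated gene bounds at 53.8% of positions, against 68% of the others, and within 250 bases before to 50 bases after a gene start in 2.82% against 6.58%.

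Of the positions, 73 lay in such promoter windows, for which RefSeq sequence (GRCm38.p6) was at hand. They fell in 24 windows of 23 gene symbols, 33 of them on a C and 40 on a G. All 24 windows held the letters CCGG, the motif at which RRBS protocols cut (the same on both strands), as did 99.8% of the 5732 windows that held any of the other autosomal positions compared. Part of 4 windows is shown upstream of the gene start, 5′ to 3′ on the gene's strand, because these windows span the methylation levels of the set. Capitals mark the CpGs that hold an extreme-depth position, and the choice of these 4 was made after their values were seen.
Tmem267: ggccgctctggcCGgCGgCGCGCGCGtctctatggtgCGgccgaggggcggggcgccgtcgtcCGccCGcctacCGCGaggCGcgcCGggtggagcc
LOC115490388: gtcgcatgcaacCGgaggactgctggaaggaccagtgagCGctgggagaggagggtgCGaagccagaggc
Grik4: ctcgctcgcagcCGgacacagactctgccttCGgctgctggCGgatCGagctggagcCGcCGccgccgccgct
Erbb4: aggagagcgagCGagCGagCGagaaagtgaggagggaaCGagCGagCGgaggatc
The stretches lie at chr13:119488376-119488472 (plus strand), chr6:3182925-3182994 (plus), chr9:42944440-42944512 (minus) and chr1:69108060-69108114 (minus).

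The Tmem267 window, which is shared with the divergent gene 3110070M22Rik, was densely methylated in spite of its many CpGs. Its 13 extreme-depth positions had a mean methylation of 85.4%, 91.0% and 86.7% in controls 1 to 3, 71.4%, 82.3% and 73.8% in KO and 94.3%, 90.6% and 93.6% in adults. All KO samples lay below all controls there, and the fewest calls at any of these positions in a sample was 10. LOC115490388 was intermediate, with 35.4%, 39.5% and 35.7% in controls, 26.0%, 26.4% and 22.3% in KO and 38.7%, 33.3% and 28.1% in adults. The promoters of Grik4, a kainate glutamate receptor subunit, and Erbb4, a neuregulin receptor kinase, were nearly free of methylation, at 0.747% and 0.388% in controls and 0.962% and 0.438% in KO. In all, 18 of the 24 windows had control means under 5%, 4 lay between 5% and 50%, and 2 were over 80%. Some windows overlap and hold the same positions, so they are not separate values. The 2 over 80% are those of Tmem267 and 3110070M22Rik, with the same 13 positions.

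One adult library stood apart. At the chromosome 17 cluster adult 2 had a mean methylation of 8.33%, against 34.1% in adult 1 and 22.8% in adult 3. The means in adults over the main sets of positions are therefore given also without adult 2. At the deepest chromosome 2 cluster KO 1 stood above the other KO samples, and the shallowest library was KO 3.

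Over the set as a whole, methylation was lower in the KO samples. Each position weighing the same, mean methylation was 48.0%, 48.9% and 48.2% in controls and 36.8%, 34.1% and 37.8% in KO. All KO samples lay below all controls, and the means were 48.4% ± 0.477 and 36.2% ± 1.92 (SD, n = 3 each). The difference was -12.2 percentage points (two-sided exact permutation p = 0.1, n = 3 each, the smallest that 3 against 3 allows), and KO had lost 25.1% of the control level. Of 27 such permutation tests on sets, clusters and differences between them, 17 reached this smallest p, which became 0.159 after Benjamini-Hochberg adjustment, so none could pass 0.05.

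The loss was near in size to that of ordinary positions. The other autosomal positions went from 50.8% ± 0.185 in controls to 37.4% ± 1.85 in KO (SD, n = 3 each), which is -13.4 points, or 26.3% of the control level. The change at extreme-depth positions was smaller by 1.197 points (exact permutation p = 0.1, n = 3 each). Without the chromosome 17 cluster the 2098 remaining positions went from 52.1% to 38.8%, and their change differed from that of the other positions by 0.022 points (exact permutation p = 0.9, n = 3 each). Weighted by calls, the extreme-depth positions lost more than the others, by 5.37 points. In this weighting the deepest chromosome 2 position counts most and the weights are each sample's own calls, so the value is a description.

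**Figure D1:**
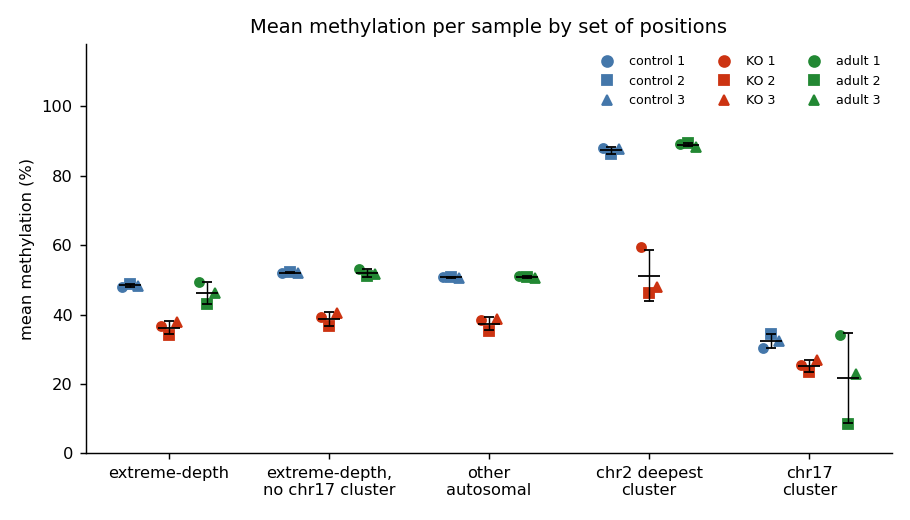
Mean methylation in percent (vertical axis) per sample for 5 sets of positions, with control in blue, KO in red and adult in green, circles, squares and triangles for replicates 1, 2 and 3, and bars for the mean and SD of 3 samples. KO lies below control in every set, by 36.1 points at the deepest chr2 cluster and 7.10 points at the chr17 cluster, and the adults spread from 8.33% to 34.1% at the chr17 cluster. Many positions of the deepest chr2 cluster entered the set through KO calls, so its loss is a description.

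The loss followed the methylation level of the position, as it did elsewhere. Where the adult mean reached 80%, the 852 extreme-depth positions went from 90.2% in controls to 66.6% in KO, a loss of 26.2% of the control level, and the 134565 other positions from 89.8% to 66.1%, a loss of 26.4%. Between 50% and 80% the losses were 27.6% and 29.0%, and between 20% and 50% they were 20.5% and 22.2%. Between 5% and 20% the extreme-depth positions lost 22.005% and the others 14.2%. Leaving out the chromosome 17 cluster made the first of these 17.5%. Under 5%, control and KO means were 2.19% and 2.14%.

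Position by position, methylation was tested with a quasi-binomial model fitted to the 380162 positions that reached 10 calls in every newborn sample. A position counted as called when it differed by 10 points or more with an adjusted p under 0.05. Of the 2585 positions, 1190 were called lower in KO, which is 46%, against 35.2% of all positions tested. Outside the chromosome 17 cluster it was 1128 of 2098. Called higher were 5, or 0.193%, against 0.127% of all, and this count was 9 without control 3 and 0 without KO 3. With limma on the logarithm of the ratio of methylated to unmethylated calls, in which every sample weighs the same whatever its depth, 1017 were lower (39.3%, against 29.0% of all) and 0 higher (against 0.122% of all). The 3 KO values were all below the 3 control values at 1529 positions, or 59.1%, against 36.9% of all positions. They were all above at 29, or 1.12%, against 0.81% of all. The median difference was smaller than in the whole table, -8.81 against -12.4 points. The sets differ in depth by their choice, and the part of depth in the share called was not tested. The median dispersion at extreme-depth positions was 3.05 times the counting variance, against 1.81 elsewhere, so samples differed by more than counting error.

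In adults the set had nearly the methylation of the newborn controls outside the chromosome 17 cluster. Its mean was 49.5%, 43.1% and 46.3% in adults, or 46.3% ± 3.23 (SD, n = 3), with adult 1 above and the other two below all controls. The difference from controls was -2.10 points (exact permutation p = 0.4, n = 3 each). It was -0.490 without adult 2 and -3.72 without adult 1, where both remaining adults lay below all controls (exact permutation p = 0.1, the smallest that 2 against 3 allows). The difference was larger in settings where depth counted for more, which are not given without adult 2. It was -8.97 points at a 10-fold stricter threshold (exact permutation p = 0.3, n = 3 each) and -13.0 weighted by calls. The weights are each sample's own calls, and the deepest chromosome 2 position took 6.998% of calls in controls and 3.128% in adults. Methylation at that position was 93.6% and 93.95%, so the weighted difference mixes weights with methylation and is a description. Outside the chromosome 17 cluster adults had 53.1%, 51.1% and 51.7%, which overlapped the controls, and the difference was -0.123 points (exact permutation p = 0.9, n = 3 each), or 0.308 without adult 2. Adults lay above KO by 10.1 points (exact permutation p = 0.1, n = 3 each), and by 11.7 without adult 2. Over the 382 positions above the threshold in all samples, the means were 34.1% in controls, 26.5% in KO and 23.5% in adults. There the order of adults and KO rested on adult 2, at 10.7%, since the mean of the other adults was 29.8%, above KO. At these 382 positions the adult difference from controls was -10.7 points with adult 2 and -4.29 without it. The parts of depth and of adult 2 were not tested.

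In the position test over 704580 positions, 391 of the 2585 were called lower in adults, which is 15.1%, against 1.98% of all positions, and 256 of these lay in the chromosome 17 cluster. Outside it, 135 were lower, or 6.43%. Called higher were 127, or 4.91%, against 1.9% of all. Without adult 2 the number lower fell to 151, and without control 2 it was 182. With a dispersion prior that followed depth it was 246 (9.52%, against 2.02% of all). Limma left 40 lower (1.55%, against 1.29% of all) and 55 higher (2.13%, against 1.2%). In it every sample weighed the same at a position, and the variance prior followed depth. Every adult lay below every control at 17.3% of the positions, against 7.92% of all, and above every control at 11.7%, against 6.97%. Adults 1 and 3 both lay below every control at 20.3% of the positions and above at 16.3%, against 12.6% and 11.7% of the other autosomal positions. As for KO, the sets differ in depth by their choice, and the part of depth in these shares was not tested.

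The deepest cluster held 17 positions at chr2:98666262-98667255 and 25937146 calls over the 9 samples. No RefSeq gene overlapped it, and the nearest, the predicted gene Gm33780, lay 35344 bases away. A single position, 98666504, had 25022337 of these calls, from 1128627 to 6698975 per sample. This one position took 7.30%, 7.55% and 6.15% of all calls in controls, 6.31%, 7.15% and 6.37% in KO and 2.89%, 3.18% and 3.32% in adults. Controls and KO overlapped in this share, and adults lay below both. Its methylation was 93.5%, 93.4% and 93.8% in controls, 71.3%, 66.9% and 71.0% in KO and 94.8%, 93.4% and 93.7% in adults. The 95% Wilson interval of its widest sample ran only from 70.9% to 71.1% (KO 3), and such intervals cover counting error alone. KO was lower by 23.8 points (quasi-binomial adjusted p 1.76e-55, limma adjusted p 4.39e-15), and adults overlapped the controls. Both models borrow dispersion or variance from other positions, so these p-values do not measure the spread of samples at this position alone.

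Over the 17 positions of the cluster, mean methylation was 88.1%, 86.2% and 87.7% in controls and 59.6%, 46.2% and 48.0% in KO. Adults had 89.2%, 89.4% and 88.4%. KO had lost 41.3% of the control level, a difference of -36.1 points, and all 17 positions were called lower by both models. At 12 of the 17 the KO share of calls was at least 5 times the control share. Those 12 lost 45.2% and the other 5 lost 32.4%. The loss over the cluster and the calls of its positions as lower are therefore a description, since many of its positions entered the set through KO calls. A neighbouring cluster of 11 positions at chr2:98662265-98662856, with 3025782 calls, had 83.4%, 83.6% and 82.9% in controls and 59.7%, 51.5% and 54.5% in KO, a loss of 33.7%. Adults there had 83.3%, 84.8% and 83.5%, and 10 of the 11 positions were called lower in KO. At 4 of the 11 the KO share of calls was at least 5 times the control share.

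Within the deepest cluster the 3 deepest positions lost a smaller share of their methylation than the other 14 on average. These positions, with more than 100000 calls, a limit set after the values were seen, had 94.2%, 94.3% and 94.6% in controls and 75.4%, 70.4% and 75.2% in KO, a loss of 21.9%. At the other 14 positions the levels were 86.8%, 84.5% and 86.2% in controls and 56.2%, 40.9% and 42.2% in KO, a loss of 45.9%. Among these 14 the control level varied too, and position 98667107, with 95206 calls, went from 67.4% to 35.5%. In the neighbouring cluster the corresponding losses were 24.2% at 2 positions and 36.2% at 9.

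**Figure D2:**
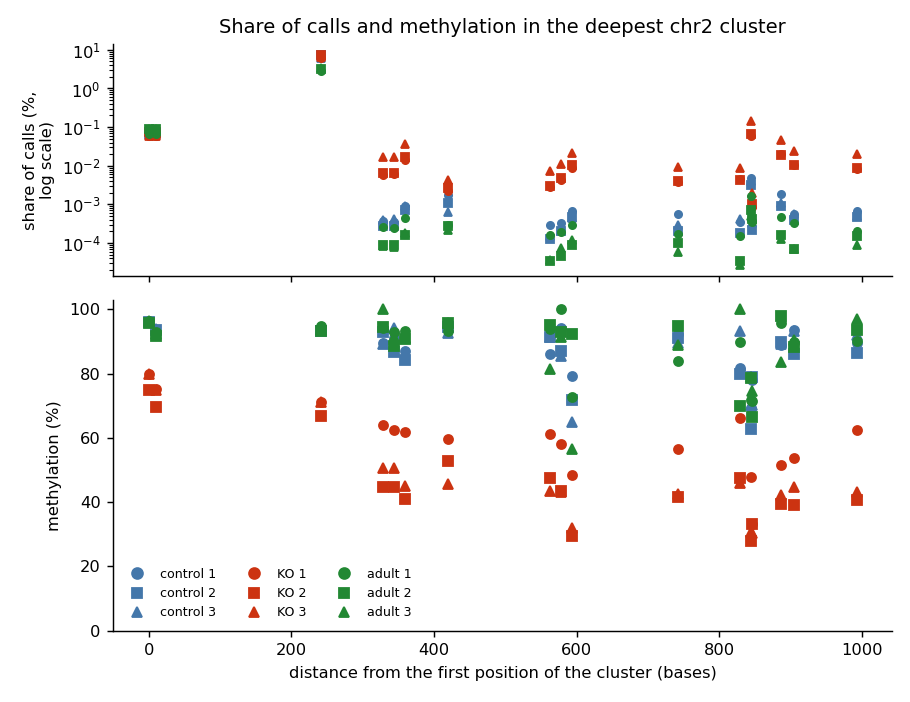
The 17 positions of the deepest chr2 cluster by distance in bases from its first position, with the share of each sample's calls on a log scale (upper panel, percent) and methylation in percent (lower panel), colours for the groups and marker shapes for the replicates. At 12 positions the KO shares are at least 5 times the control shares, and at the first 3 positions KO methylation is higher than at the others.

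The shallower chromosome 2 positions entered the set mainly through the KO samples. At position 98666591, for example, the calls were 134, 243 and 159 in controls, 2898, 3095 and 3130 in KO and 105, 53 and 64 in adults. At this position methylation was 89.6%, 93.0% and 89.3% in controls and 63.9%, 44.6% and 50.8% in KO. Across the set, 26 positions in 7 clusters had a mean share of calls in KO at least 5 times that in controls. That is 1.01% of the set, and 3 of the 349930 other positions did so. High calls in KO favoured entry into the set, so this contrast follows in part from the choice of positions. The median ratio over the set was 0.880 and the highest 29.3. Of the 26, 12 lay in the deepest chromosome 2 cluster and 4 in its neighbour.

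The remaining 10 lay on chromosomes 9 and 14. At chr14:19417720-19417747 calls over 3 positions numbered 763, 1085 and 745 in controls, 11705, 11832 and 10250 in KO and 110, 30 and 33 in adults. At chr9:35305418-35305434 they numbered 440, 787 and 479 in controls, 9103, 10385 and 8787 in KO and 257, 189 and 160 in adults over 2 positions. The others were at chr14:19415974-19415992 and, near the start of chromosome 9, at 3004591 to 3004609 and at 3022193. At both clusters whose calls are given, every KO sample had more calls than every control, although KO 3 was the shallowest library.

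Together the 26 positions took 0.0222%, 0.0149% and 0.0183% of the calls in controls, 0.276%, 0.306% and 0.694% in KO and 0.00934%, 0.00387% and 0.00316% in adults. The KO share was 23.0 times the control share. Their methylation was 83.1%, 80.6% and 82.0% in controls, 54.3%, 36.9% and 39.6% in KO and 86.1%, 88.4% and 88.0% in adults, a loss of 46.8% of the control level in KO. The other 2559 positions lost 24.7%. In the deepest chromosome 2 cluster the 12 positions of this kind lost 45.2% and the remaining 5 lost 32.4%. The positions were chosen on these calls after the values were seen, so neither the calls nor the losses were tested, and whether the gain in calls had a part in the loss of methylation was not tested.

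The opposite pattern, calls that nearly vanished in adults, was seen at 95 positions in 45 clusters, where the control share was at least 5 times the adult share. That is 3.68% of the set, against 0.0380% of the other positions. High calls in newborns favoured entry into the set, so this contrast too follows in part from the choice of positions. At chr14:82083944-82083991, the fifth cluster by calls, 4 positions had 73364, 160277 and 64731 calls in controls, 81118, 83356 and 32761 in KO and 115, 256 and 324 in adults. Methylation there was 93.1%, 93.2% and 93.4% in controls, 75.5%, 72.4% and 77.4% in KO and 94.8%, 92.6% and 96.6% in adults. So calls separated adults from both newborn groups, while methylation separated KO from both others. At chr6:85734485-85734513 3 positions had 13123, 33791 and 13244 calls in controls and 93, 155 and 87 in adults, and methylation was 61.1%, 61.2% and 61.6% in controls against 87.1%, 76.8% and 87.4% in adults. Over the 95 positions methylation was 81.8% in controls, 62.6% in KO and 87.2% in adults.

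For the set as a whole, the share of calls was 12.3%, 12.3% and 10.9% in controls, 10.9%, 11.7% and 11.5% in KO and 6.80%, 6.37% and 6.88% in adults. Controls and KO overlapped, and every adult lay below every newborn. The adult share was 0.564 times the control share, and 0.721 times without the deepest chromosome 2 cluster. The chromosome 17 cluster did not follow this, with 1.83% ± 0.124 of calls in controls, 1.63% ± 0.129 in KO and 1.89% ± 0.359 in adults (SD, n = 3 each).

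The chromosome 17 cluster spanned chr17:39843014-39848799 and held 8005424 calls, and its 487 positions made it the largest. It overlaps Rn18s-rs5, a pseudogene related to 18S ribosomal RNA at 39846354 to 39848202, which held 48 of the positions, and the 5′ part of the long non-coding RNA gene AY036118. The median position had 1390 calls per sample and the lowest value was 17. In contrast to the chromosome 2 clusters, it was partly methylated in controls, at 30.4%, 34.3% and 32.3%. KO had 25.4%, 23.4% and 27.0%, below all controls, a difference of -7.10 points (exact permutation p = 0.1, n = 3 each) and 21.9% of the control level. Its change in KO was smaller than that of the other autosomal positions by 6.26 points (exact permutation p = 0.1, n = 3 each). The cluster also started lower, at a control mean of 32.3% against 50.8%, so the difference in points does not compare the shares lost. Those were 21.9% of the control level in the cluster and 26.3% at the other positions. All KO values were below all control values at 311 of the 487 positions, and 62 were called lower in KO, 39 by limma. Of all positions tested, 36.9% had all KO values below all control values, 35.2% were called lower and 29.0% were lower by limma. The cluster was thus above the general share for the order of samples and under it for both kinds of call. A call needed a minimum difference in points, which was larger than the mean change of -7.10 points in this cluster. The low share of calls therefore follows in part from the low control level, and no conclusion on the loss is drawn from it.

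Adults differed from each other along the entire chromosome 17 cluster. Adult 1 had 34.1%, adult 2 had 8.33% and adult 3 had 22.8%. Adult 1 lay above adult 3, and adult 3 above adult 2, at 463 of the 487 positions, and adult 2 was the lowest of all 9 samples at 472. In 12 bins of 500 bases adult 2 ranged from 6.14% to 12.4%, while the control means ranged from 20.4% to 39.1%. The adult mean was -10.6 points from controls (exact permutation p = 0.3, n = 3 each), -3.93 without adult 2 and -16.8 without adult 1. The quasi-binomial model called 256 of the 487 positions lower in adults, and limma 13, against 1.98% and 1.29% of all positions tested.

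**Figure D3:**
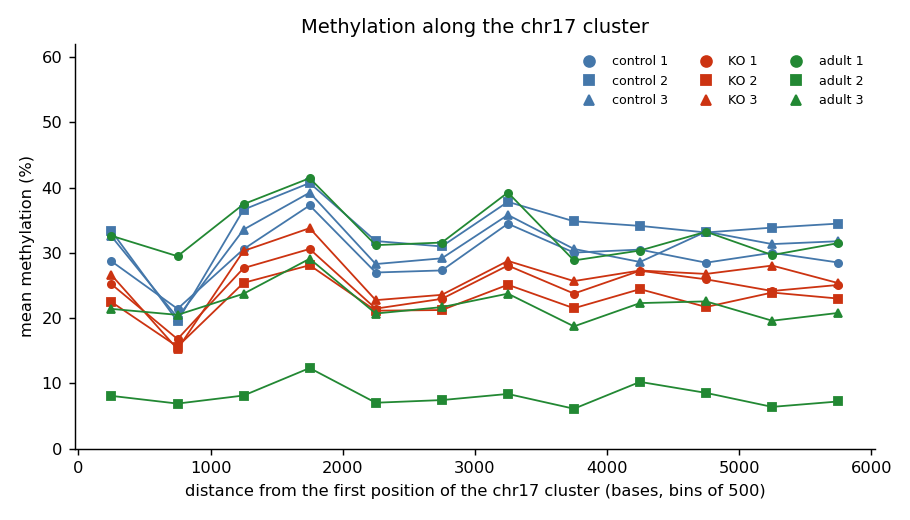
Mean methylation in percent (vertical axis) along the chr17 cluster in 12 bins of 500 bases from its first position (horizontal axis), 1 line per sample, blue for control, red for KO and green for adult, with marker shapes for replicates. Adult 2 (green squares) lies between 6.14% and 12.4% in every bin, below all other samples, and in all 12 bins every KO sample lies below every control.

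The same order of adults appeared in some clusters on other chromosomes. Adult 1 lay above adult 3, and adult 3 above adult 2, in 57 of the 224 clusters of at least 3 positions. Among the 224, the 3 adults were usually close, with a median range of 2.65 points, against 1.97 in controls and 3.65 in KO. In 13 clusters the adult range exceeded 15 points, and in 10 of these adult 2 was lowest. At chr11:109011699-109011984, within the non-coding gene Gm36876, 29 positions had 35.3%, 8.01% and 22.01% in adults 1 to 3, and 23.7%, 28.2% and 28.1% in controls. At chr5:146261012-146261295, within Cdk8, a kinase of the Mediator complex, 15 positions had 35.1%, 8.60% and 21.6% in adults and 29.8%, 35.2% and 32.0% in controls. KO had 22.1%, 20.5% and 23.3% at the first and 24.5%, 22.2% and 27.0% at the second, below the controls at both. These levels lie close to those of the chromosome 17 cluster sample by sample.

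Clusters in Taco1 (chr11:106066778-106066810), in Jarid2 (chr13:44869632-44869654), in the overlapping genes Cmss1 and Filip1l (chr16:57391592-57391636) and at chr8:3754410-3754452 had adult levels of 34.6%, 9.10% and 24.4%, of 39.3%, 15.7% and 26.8%, of 42.7%, 10.5% and 26.0%, and of 31.5%, 6.30% and 17.7%. All 4 were thus lowest in adult 2 and highest in adult 1. At chr16:11144050-11144122 in Zc3h7a, 24 positions were low in newborns, at 9.43%, 8.63% and 9.81% in controls and 8.39%, 9.02% and 9.19% in KO, and 25.5%, 6.69% and 15.1% in adults. There the KO samples overlapped the controls. Of the 3 clusters with a wide adult range in which adult 2 was not lowest, chr13:65309221-65309270 had the widest, with 40.7%, 85.3% and 87.0% in adults, and controls there were also spread, at 38.7%, 45.3% and 81.9%. These clusters were picked out by their adult range, so their levels are a description.

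**Figure D4:**
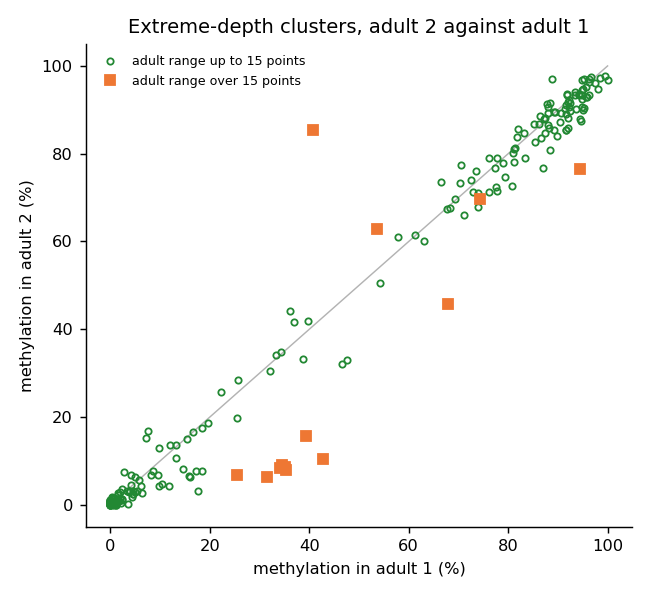
Methylation in adult 2 against adult 1, both in percent, for the 224 clusters of at least 3 extreme-depth positions, with orange squares for the 13 clusters whose adult range exceeds 15 points and a grey line of equality. Most clusters lie near the line, and a group of squares lies far below it, at 25.5% to 42.7% in adult 1 and 6.30% to 15.7% in adult 2.

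The loss in KO was widespread over clusters. Of the 224 clusters, 80 had control means under 5%, 23 lay between 5% and 20%, and 121 had at least 20%, of which 73 had at least 80%. Of the 121, 120 had a KO mean below the control mean, and in 108 the KO samples did not overlap the controls. The share of the control level lost had a median of 23.9% and ran from -3.20% to 59.2%.

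**Figure D5:**
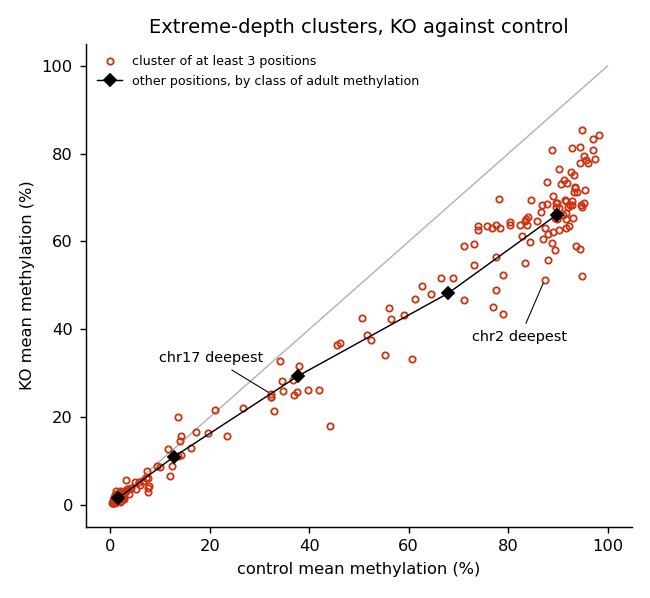
Mean methylation in KO against control, both in percent, for the 224 clusters of at least 3 extreme-depth positions (red circles), beside the means of other autosomal positions in 5 classes of adult methylation (black diamonds) and a grey line of equality. Nearly all clusters with control methylation of at least 20% lie below the line, and the deepest chr2 cluster, at 87.3% in controls and 51.3% in KO, lies below the black line. Many positions of that cluster entered the set through KO calls, so its place is a description.

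The largest loss was at chr3:101171249-101171299, outside annotated genes, where 5 positions went from 47.1%, 43.4% and 41.6% in controls to 22.4%, 15.4% and 16.2% in KO, a loss of 59.2%. Adults had 61.4%, 61.6% and 61.9%, above all controls. The next were a pair of clusters of 3 positions each on chromosome 14, chr14:19417720-19417747 and chr14:19418796-19418836, with losses of 45.1% and 45.0%. The former is among the clusters that gained calls in KO, and went from 59.8%, 61.2% and 60.9% to 42.0%, 27.9% and 29.9%. The latter went from 94.1%, 94.98% and 95.5% to 64.1%, 42.7% and 49.6%, where calls numbered 953, 1758 and 578 in controls and 1205, 1601 and 588 in KO. KO 1 was the highest KO sample at all 3, as at the deepest chromosome 2 cluster.

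The smallest losses were at chr2:179767575-179767621, within the gene of the cell adhesion molecule Cdh4, at chr18:37755742-37755783 in the gamma protocadherin gene cluster, and at chr2:51621372-51621406. At Cdh4, 4 positions had 23.4%, 18.9% and 20.7% in controls and 13.7%, 16.0% and 35.3% in KO. Its sign rested on KO 3, since without it the difference changed from 0.67 to -6.13 points. The protocadherin cluster had 32.8%, 37.1% and 32.4% in controls and 35.4%, 28.7% and 34.5% in KO, which overlapped. At chr2:51621372-51621406 the levels were 87.2%, 87.6% and 91.9% in controls and 84.8%, 78.9% and 79.1% in KO, a loss of 8.93%. None of these 12 positions was called higher, and 1 of the Cdh4 positions was called lower, by the quasi-binomial model and not by limma.

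Between newborns and adults, the largest rises and falls were at clusters of 3 or 4 positions of modest depth. At chr10:44997562-44997606 methylation rose from 2.31%, 7.66% and 2.28% in controls to 39.8%, 41.8% and 28.5% in adults, and KO stayed low, at 2.61%, 3.40% and 5.21%. At chr16:35712301-35712338 in Slc49a4, a membrane transporter gene, the levels were 33.5%, 42.5% and 34.3% in controls and 68.4%, 67.7% and 61.3% in adults. At chr5:124041085-124041105 in the non-coding gene Gm34086 they were 52.4%, 53.3% and 51.4% in controls and 77.8%, 78.9% and 81.5% in adults. Adults lay above controls without overlap at all 3.

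The largest fall was at chr3:122510246-122510405 in Bcar3, an adaptor of integrin signalling. Its 4 positions had 54.2%, 45.3% and 52.1% in controls, 48.4%, 35.3% and 43.9% in KO and 10.3%, 4.79% and 9.94% in adults, and all 4 were called lower in adults by both models. At chr14:62001981-62002101 levels fell from 66.2%, 68.1% and 79.3% in controls to 34.4%, 34.7% and 26.4% in adults, and KO lay between, at 47.3%, 45.1% and 47.9%. At chr1:191935992-191936008 in the pseudogene Gm39743 they fell from 93.1%, 93.3% and 91.0% to 66.6%, 73.6% and 80.2%, close to the KO levels of 71.8%, 63.9% and 69.2%.

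RNA gave a readout that the choice of positions did not use. The bounds of 600 RefSeq genes held an extreme-depth position, 517 were found by symbol in the count table, and 426 passed the filter on low counts, in libraries of 26773937 to 34102567 gene counts. In KO 36 of the 426 were higher (8.45%, against 6.36% of all 18132 genes tested) and 41 lower (9.62%, against 8.23%) by edgeR's quasi-likelihood test at an adjusted p under 0.05. Without control 3 the counts were 68 and 65. Without KO 1, 2 or 3 they were 11, 16 and 15 higher and 19, 22 and 20 lower, and without control 1 there were 13 higher. The median log2 fold change was -0.026, against -0.001 over all genes. Of 173 genes at clusters with control methylation of at least 80%, 17 were higher and 20 lower, and of 110 at clusters under 5%, 5 were higher and 8 lower. In whole tissue, fewer cells of a type and less RNA per cell cannot be told apart. Of 25 kidney cell type markers, 10 were lower and 4 higher in KO, none was at 0, and their summed level ran from 5882 to 6410 CPM (gene counts scaled to a common library size) in controls and from 2858 to 3242 in KO. All 6 podocyte, proximal tubule and loop markers were lower, from 2184 to 3849 CPM summed in controls and 319 to 400 in KO. The other 19 markers summed to 2560 to 3888 CPM in controls and 2540 to 2842 in KO, which overlapped, with 4 lower and 4 higher. The 4 higher were Foxd1 of stroma, Ret of the ureteric lineage, Eya1 of nephron progenitors and Ptprc of leukocytes. The part of the marker changes in the gene results was not tested.

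Among the genes with the smallest p, Slc1a3, a glutamate transporter, rose from 11.7 ± 0.705 to 34.9 ± 3.16 CPM (log2 fold change 1.58, SE 0.14, edgeR adjusted p 0.000345), and its cluster was almost unmethylated, at 0.665% in controls. Esrrb, an orphan nuclear receptor, fell from 19.9 ± 3.81 to 1.74 ± 0.952 CPM (log2 fold change -3.51, SE 0.38, edgeR adjusted p 0.000837). Mcur1 of mitochondrial calcium uptake, Atp5g1 of the ATP synthase and the mitochondrial carrier Slc25a13 fell too, with log2 fold changes of -1.24, -0.96 and -1.26. Of these 3 genes only Slc25a13 had a densely methylated cluster, at 92.2% in controls.

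The genes with printed promoters differed. Erbb4, with its unmethylated promoter, fell from 53.2 ± 7.14 to 25.5 ± 1.17 CPM (log2 fold change -1.06, edgeR adjusted p 0.00161). Grik4, equally unmethylated there, rose from 6.37 ± 0.766 to 14.3 ± 1.73 CPM (log2 fold change 1.17, edgeR adjusted p 0.00472). Tmem267, whose methylated window lost part of its methylation, had 25, 22 and 68 counts in controls and 59, 104 and 61 in KO, which overlapped (log2 fold change 1.18, SE 0.44, edgeR adjusted p 0.123). Of the genes at named clusters, Bcar3 was lower in KO, at 22.6, 22.3 and 19.1 CPM against 29.8, 29.4 and 29.9 in controls (log2 fold change -0.48, edgeR adjusted p 0.041). That call was lost when any of the 6 samples other than control 3 was left out, and with no filter on low counts. Cdh4 and Cdk8 did not pass, with log2 fold changes of 0.34 (SE 0.17) and -0.07 (SE 0.16). AY036118 had 0 counts in all 6 libraries.

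Of 26 tested genes for proteins that act on methylation and chromatin at satellites, 3 were called by edgeR and 6 by DESeq2, and 6 had an unadjusted p under 0.05. Of all 18132 genes tested, edgeR called 6.36% higher and 8.23% lower, so the list did not stand out by edgeR. The DESeq2 share over all genes is not given here. By edgeR Dnmt1 itself was lower, at 175 ± 16.6 CPM in controls and 105 ± 9.57 in KO (edgeR adjusted p 0.00577). Higher were Suv39h2, a histone H3 lysine methyltransferase of pericentromeric chromatin, from 11.1 ± 2.16 to 28.6 ± 6.61 CPM (log2 fold change 1.37, edgeR adjusted p 0.00458), and Cenpc1, a centromere protein, from 28.7 ± 3.03 to 40.2 ± 3.04 CPM (log2 fold change 0.49, edgeR adjusted p 0.0405). Uhrf1, which brings Dnmt1 to hemimethylated CpGs, had 132 ± 4.94 and 164 ± 6.41 CPM, and Dnmt3b, a de novo methyltransferase, 22.5 ± 0.912 and 19.1 ± 1.79, neither past the threshold. The median log2 fold change of the list was 0.09. Of 17 genes of ribosomal DNA transcription and the nucleolus, 0 were called in either direction by edgeR, 0 had an unadjusted p under 0.05, and 0 were called by DESeq2. Their median log2 fold change was 0.07.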

How the data were processed

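For each cytosine, the RRBS files as deposited hold its percent methylated and the counts of both kinds of call, 1 file per sample. The percent equals 100 times methylated calls over all calls in each line. The deposited RNA files give raw read counts per gene, without 5 closing lines of unassigned reads (22.9% to 35.8% of reads). Trim Galore, Bismark, STAR 2.4.1d, HTSeq 0.6.1 and builds mm10 and GRCm38 are named per the submitters' processing notes. How reads with several alignments were treated is not given in the sources used here.

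Means were compared with two-sided exact permutation tests over samples. Single positions were tested in Python 3.11.15 (numpy 2.4.6, scipy 1.17.1) with a quasi-binomial logistic model, its dispersion moderated toward a common prior and not under 1, and with limma 3.58.1 on log2 of (methylated + 1)/(unmethylated + 1). The limma variance prior followed a trend on the mean calls of a position. P-values were Benjamini-Hochberg adjusted over all positions. Genes were tested with edgeR 4.0.16 (quasi-likelihood, TMM, filterByExpr) and DESeq2 1.42.0 in R 4.3.3. On simulated deep positions lowered by 25 points the main model recovered 98.4%, with 3.2% false calls. On all simulated positions it recovered 72%, and without moderation 0%. The simulation used the call numbers of controls and KO, with noise drawn independently at each position. Shifts shared by a cluster within a sample, and the adult comparison, were not simulated, so the false share does not extend to them.

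The positions and gene lists were chosen with earlier results of these data known. Clusters were named by rule: the 6 with the most calls, and among clusters of at least 3 positions the 3 with the largest and the 3 with the smallest share lost in KO (control of at least 20%) and the 3 largest adult rises and falls. Named genes lay at named clusters or were among those with the smallest p, and Grik4 and Tmem267 were added after their values were seen. Not every gene this rule names is reported here. A planned sequence comparison was not run without a genome. Alternatives were other thresholds, weights, models, a replicate block, and each sample left out.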

Additional observations from a re-analysis of the deposited data

Results flagged for a closer look

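Outside the autosomes, 96 positions exceeded the threshold of calls in at least 1 sample and are part of no comparison above. The 46 on chromosome X took 0.188% of calls in adults, above every control (mean 0.144%), with methylation of 62.3% in controls, 48.3% in KO and 64.7% in adults. The 31 on chromosome Y took 0.0173% of calls in adults, against 0.00888% in controls, and were methylated at 78.9%, 60.1% and 90.6%. The 19 on the mitochondrial genome took 0.642% of calls in KO and 0.751% in adults, both above every control (mean 0.246%), with methylation of 1.93%, 1.76% and 0.378%. Each was picked out because its share of calls lay above the control level in data that the comparisons did not use, and the differences were not tested.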

How the results depend on the processing

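Of 565 alternative values, 506 were labelled unchanged, 13 turned direction, 35 fell or lost a call and 9 rose or gained one. For 2 shares of calls the value moved by more than the spread of samples. A mean difference was labelled unchanged when it kept its sign, whatever its size or p, and a count when its size was similar. Adult minus KO, for example, was 1.82 points at a 10-fold stricter threshold and was labelled unchanged. The replicate block left mean differences the same by construction. Adult minus control became 0.06 points with each cluster weighing the same. Adult minus KO became -3.07 over positions above the threshold in all samples. The difference in KO change between extreme-depth and other positions became -1.03 with a threshold of 5 in 1000 and -5.37 weighted by calls. At single clusters, adult minus control turned to 1.99 at chr11:109011699-109011984 without adult 2 (range with a sample left out -11.6 to 1.99) and to 1.04 at chr14:19418796-19418836 without adult 1 (-3.10 to 1.04). KO minus control turned at chr2:179767575-179767621 to -0.36 without control 2 and -6.13 without KO 3 (range -6.13 to 4.64), at chr18:37755742-37755783 to 0.28 and 0.85 without control 2 and KO 2 (-2.51 to 0.85), and at chr10:44997562-44997606 to 1.44 and 0.22 without control 2 and KO 1 (-1.25 to 1.44). For Cdk8 RNA the log2 fold change turned to 0.13 without control 3 (-0.19 to 0.13). The causes were not tested.

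The threshold of 5 in 1000 kept 15236 positions rather than 2585, so its counts below refer to a larger set and are not comparable with the others. Counts lower in KO were 464 at a difference of at least 25 points, 0 without moderated dispersion (1120 at an unadjusted p under 0.05) and 8402 at 5 in 1000, and from 1085 to 1234 with a sample left out. Counts higher in KO were 2 at an adjusted p under 0.01, 0 at 25 points, 11 with dispersion fixed at 1, 0 unmoderated, 34 at 5 in 1000, 0 by limma, and 0 to 9 with a sample left out. Counts lower in adults were 37 at 25 points, 0 unmoderated (245 unadjusted), 1032 at 5 in 1000, 135 without the chromosome 17 cluster, 246 with a prior that followed depth, 40 by limma, and 151 to 576 with a sample left out. Counts higher in adults were 33, 0, 815 and 55 at 25 points, unmoderated, at 5 in 1000 and by limma. The adult share of calls was 0.685 times the control share over positions covered in all samples and 0.721 without the deepest chromosome 2 cluster. Genes higher in KO numbered 11 to 68 and lower 19 to 65 with a sample left out, the upper ends without control 3. The trended prior, limma, the chromosome 17 exclusion the newborn-only threshold and the subset means without adult 2 were chosen after seeing the data.

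The labels number the replicates alike in each group, but same-numbered samples did not deviate together (correlations of -0.00461 to 0.00565 in RRBS and -0.236 to -0.0653 in RNA). With a replicate block 1050 positions were lower and 0 higher in KO (1185 at an unadjusted p under 0.05), 0 lower and 0 higher in adults (305 unadjusted), and 20 genes were higher and 28 lower. With 3 pairs the sign-flip test cannot go below 0.25. The block left the mean differences at -12.2 points for KO and -2.10 for adults, with p of 0.25 and 0.5 in the exact test. The number of samples, 3 a group, limits the comparisons of means, whose smallest p is 0.1.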
